A study of Bos taurus with 4 samples.

Results

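The 10 genes described here mark the base of the intestinal crypt or belong to the Wnt response of crypt cells. They are the receptors LGR5 and LGR4, the feedback regulators RNF43, ZNRF3 and AXIN2, the transcription factor ASCL2, the crypt base markers OLFM4 and SMOC2, and the sorting receptors EPHB2 and EPHB3. They were taken by symbol from the 29792 gene rows of the deposited counts, and each of the 10 had 1 row. The study made 1 library each of bovine small intestine, bovine muscle, and intestinal organoids at passage 5 (P5) and passage 10 (P10). All were labelled as Hanwoo cow. The tissues were taken as such, and the organoids grew from jejunal crypts of healthy animals over 24 months old, in Matrigel with IntestiCult medium. The sources do not say whether the P5 and P10 organoids came from the same animal or culture, or which muscle was sampled. With 1 library for each condition, no difference has a replicate check, no p-value is given, and passage cannot be told apart from culture, animal or library.

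Wnt ligands bind Frizzled receptors on crypt cells, stabilise beta-catenin and switch on target genes through TCF factors. R-spondins strengthen this signal by binding LGR4 and LGR5, which draws the ubiquitin ligases RNF43 and ZNRF3 away from the Frizzled receptors that they would otherwise remove. RNF43, ZNRF3 and AXIN2 are themselves Wnt targets and form negative feedback, and the signal is strongest at the crypt base, where the stem cells divide.

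QuantSeq counts the 3′ ends of polyadenylated RNA, so a count is a number of transcript ends and not of fragments along a transcript. The libraries held between 12917720 and 17776273 reads, and CPM below is reads per 1e+06 reads of the library, with a 95% Wilson interval. A log2 difference below is a difference of log2(quantile-normalised count + 1), the scaling the study names, and a gene is called higher or lower when it passes 2-fold on that scale. The ratio of 2 CPM values is given beside it with an exact 95% interval. All intervals cover counting error only and leave out variation between animals, cultures and libraries. Reads copied by PCR cannot be told from separate molecules, so the intervals may be too narrow even for counting error. In bulk RNA, fewer cells of a type and less RNA per cell cannot be told apart.

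The libraries went with their labels. In the muscle library, the 10 skeletal muscle markers summed to 52511 CPM, against 4.78 to 9.19 CPM in the other 3. The 10 epithelial markers summed to 2056 CPM in intestine and 23.1 CPM in muscle, against 10760 CPM at P5 and 9875 CPM at P10. The stromal, immune and smooth muscle lists, of 10 genes each, summed to 1333, 6275 and 3731 CPM in intestine, and to between 1.07 and 65.6 CPM in either organoid library. The 18S ribosomal RNA row RN18S1 took 23.6% of the muscle reads, 4.08% in intestine, 4.81% at P5 and 0.264% at P10. This gap between the organoid libraries cannot be told apart from passage.

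Between the passages, 5 of the 10 genes were at least 2-fold higher in P10 organoids, ASCL2, SMOC2, EPHB3, ZNRF3 and OLFM4, and 1 was at least 2-fold lower, LGR5. LGR4, RNF43, AXIN2 and EPHB2 lay within 2-fold. Of the 16131 rows with at least 10 reads in either organoid library, 16.1% were at least 2-fold higher in P10 organoids and 16.6% at least 2-fold lower. Among the 12735 rows with at least 50 reads in either, these shares were 12.6% and 12.2%, and 5 of the 9 genes with that many reads were higher and 0 lower. The median log2 difference of the 10 genes was 1.22, against 0.06 for the 16131 rows. The genes were chosen with earlier results of these data known, so the counts describe them and no more.

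**Figure D1:**
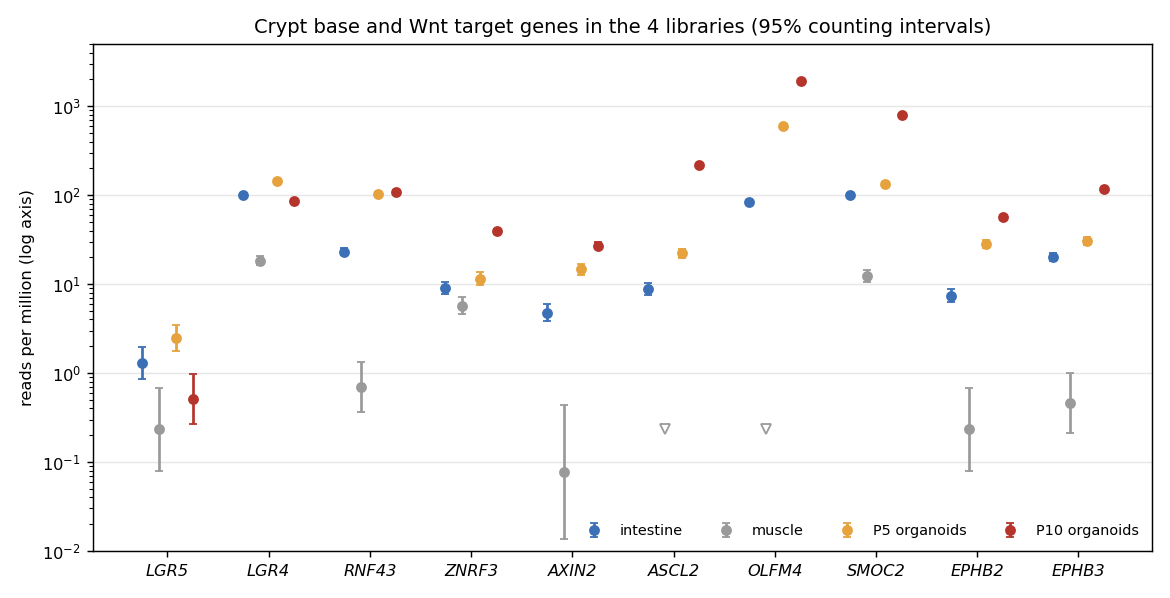
Each point is the level of a gene in 1 library, in CPM on a log axis, for intestine, muscle, P5 organoids and P10 organoids. Bars are 95% Wilson intervals of counting error, and open triangles mark 0 reads, drawn at the floor of 3 reads (0.232 CPM in muscle). P10 organoids hold the highest point for OLFM4, at 1933 CPM, and P5 organoids for LGR5, at 2.50 CPM.

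By CPM, 8 of the 10 genes were in the order P10 organoids, P5 organoids, intestine and muscle from high to low. LGR5 and LGR4 were instead highest at P5, followed by intestine, P10 organoids and muscle. Within these orders, the neighbours whose ratio had a counting interval across 1 were the 2 passages for RNF43, and P10 organoids and muscle for LGR5. With quantile normalisation, muscle stood above intestine and P5 organoids for ZNRF3, and P10 organoids just above intestine for LGR5.

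LGR5, an R-spondin receptor and the classical marker of crypt base columnar stem cells, had few reads in all 4 libraries. It had 23 reads in intestine and 3 in muscle, against 34 at P5 and 9 at P10. In CPM that was 1.29 (0.862 to 1.94), 0.232 (0.0790 to 0.683), 2.50 (1.79 to 3.49) and 0.508 (0.267 to 0.965). P10 organoids were thus below P5 organoids, with a log2 difference of -1.70 and a CPM ratio of 0.203 (0.0856 to 0.432). Set against muscle, the P10 ratio was 2.19 (0.545 to 12.6), a difference that was not detectable with so few reads.

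LGR4, the related R-spondin receptor that is expressed more widely along the epithelium and in other tissues, had 1764 reads in intestine and 237 in muscle, against 1975 at P5 and 1532 at P10. Its level was 99.2 CPM in intestine and 18.3 CPM in muscle. It was also lower at P10, but within 2-fold, at 86.4 CPM against 145 CPM (log2 difference -0.81, CPM ratio 0.595, 0.556 to 0.636). LGR5 and LGR4 were the only genes of the 10 with a negative log2 difference between the passages under all 9 alternatives.

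RNF43 and ZNRF3 are membrane ubiquitin ligases that remove Frizzled receptors, and they differed from each other between the passages. RNF43 had 411 reads in intestine and 9 in muscle, against 1398 at P5 and 1918 at P10, or 103 CPM at P5 and 108 CPM at P10. Its CPM ratio was 1.05 (0.982 to 1.13) and its log2 difference 0.04, which became -0.04 with upper-quartile normalisation, so no direction is given. ZNRF3 had 160 reads in intestine and 74 in muscle, against 157 at P5 and 691 at P10. It was 11.5 CPM at P5 and 39.0 CPM at P10 (log2 difference 1.58, CPM ratio 3.38, 2.83 to 4.04).

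AXIN2, a scaffold of the complex that degrades beta-catenin and a widely used readout of Wnt signalling, had 85 reads in intestine and 1 in muscle, against 200 at P5 and 477 at P10. It was 4.78 CPM in intestine, 14.7 CPM at P5 and 26.9 CPM at P10. The log2 difference of 0.71 was within 2-fold and the CPM ratio was 1.83 (1.55 to 2.17).

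ASCL2, a transcription factor of crypt base stem cells, showed the largest difference of the 10 genes between the passages. It had 155 reads in intestine and 0 in muscle, where the Wilson interval reached 0.297 CPM, against 300 at P5 and 3832 at P10. It was 22.1 CPM (19.7 to 24.7) at P5 and 216 CPM (209 to 223) at P10, a log2 difference of 3.28 and a CPM ratio of 9.80 (8.71 to 11.1). Intestine, at 8.72 CPM (7.45 to 10.2), was below both.

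OLFM4, a secreted glycoprotein of crypt base cells, had 1489 reads in intestine and 0 in muscle, against 8151 at P5 and 34268 at P10. In intestine this was 83.8 CPM. It stood at 599 CPM at P5 and 1933 CPM at P10 (log2 difference 1.54, CPM ratio 3.22, 3.15 to 3.30).

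SMOC2, a matricellular protein found in the LGR5 stem cell signature and also made by stromal cells, had 1789 reads in intestine and 160 in muscle, against 1804 at P5 and 14206 at P10. It was 133 CPM at P5 and 801 CPM at P10 (log2 difference 2.62, CPM ratio 6.04, 5.75 to 6.35). SMOC2 overlaps, in RefSeq genes placed on ARS-UCD2.0, the long noncoding RNA LOC107132803, which had 0, 11, 127 and 186 reads in the 4 libraries in the same order. In all, 3 of the 10 genes had an overlapping gene. That of ZNRF3, the long noncoding RNA LOC112442056, had 0, 0, 4 and 0 reads. That of LGR5, the small nuclear RNA LOC112446921, had 0 reads in each library. The sources do not say whether strand was used in counting.

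EPHB2 and EPHB3 are receptors for ephrin-B ligands, are raised by Wnt signalling and keep crypt cells in position. EPHB2 had 132 reads in intestine and 3 in muscle, against 384 at P5 and 999 at P10. Its log2 difference of 0.90 was just within 2-fold and its CPM ratio was 2.0 (1.77 to 2.25). Per epithelial marker read it was past 2-fold (1.12). EPHB3 had 360 reads in intestine and 6 in muscle, against 416 at P5 and 2094 at P10, with 30.6 CPM at P5 and 118 CPM at P10. It was called higher, with a log2 difference of 1.90 and a CPM ratio of 3.86 (3.47 to 4.30).

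**Figure D2:**
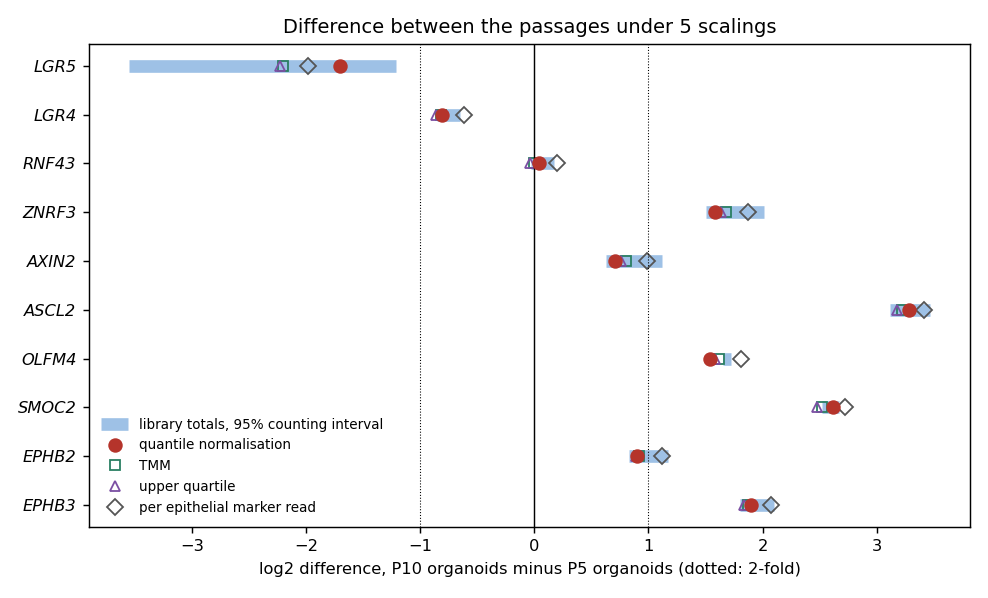
Log2 difference of P10 minus P5 organoids for each of the 10 genes, with quantile normalisation (filled circles), TMM (squares), upper quartile (triangles) and per epithelial marker read (diamonds). Blue bars are the exact 95% counting interval of the CPM ratio, dotted lines mark 2-fold, and ASCL2 lies farthest right, at 3.28, while LGR5 lies farthest left, at -1.70, with the widest bar.

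Cell class markers also differed between the organoid libraries. The 15 proliferation genes summed to 987 CPM at P5 and 1998 CPM at P10. The 14 enterocyte genes summed to 5255 CPM at P5 and 427 CPM at P10, with 13 and 10 of them having a read, and 10 of the 11 with at least 10 reads were called lower at P10. APOA1, APOA4, SLC2A2 and ALPI had 0 reads there, ALPI also at P5. Of the proliferation genes, 6 were called higher and 0 lower. Over all rows with at least 10 reads in either organoid library, 16.1% were called higher at P10 and 16.6% lower. The 7 goblet cell genes summed to 1395 and 1027 CPM. The part of these differences in those of the crypt genes was not tested. Set against the summed reads of the 10 epithelial markers in place of all reads, 6 of the 10 crypt and Wnt genes were at least 2-fold higher at P10 and 1 at least 2-fold lower, beside 20.8% and 16.1% of all rows. The lower 1 was LGR5, at -1.98. Among the epithelial markers themselves, 1 was called higher at P10, KRT18, with a CPM ratio of 3.28. The 3 called lower were EPCAM, CLDN7 and CDX2, the last with 199 reads at P5 and 24 at P10, beside 4 in intestine. These 4 were named after their values were seen.

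Shares within related pairs do not depend on how libraries are scaled. RNF43 took 72.0% of the reads of RNF43 and ZNRF3 together in intestine (68.2 to 75.5), 89.9% in P5 organoids (88.3 to 91.3), 73.5% in P10 organoids (71.8 to 75.2) and 10.8% in muscle (5.81 to 19.3). Reads of RNF43 per read of ZNRF3 were 1.08 times as many at P10 as in intestine (0.877 to 1.33), within counting error, and 3.46 times as many at P5 as in intestine (2.69 to 4.47).

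The ephrin receptors made the next pair. EPHB2 took 26.8% of the reads of EPHB2 and EPHB3 in intestine (23.1 to 30.9), 48.0% in P5 organoids (44.6 to 51.5) and 32.3% in P10 organoids (30.7 to 34.0). Muscle had only 9 reads of the pair, 33.3% of them EPHB2 (12.1 to 64.6). Reads of EPHB2 per read of EPHB3 were 0.517 times as many at P10 as at P5 (0.440 to 0.607), and 1.30 times as many at P10 as in intestine (1.05 to 1.62).

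LGR5 took 1.29% of the reads of LGR5 and LGR4 in intestine (0.859 to 1.92), 1.69% in P5 organoids (1.21 to 2.36), 0.584% in P10 organoids (0.308 to 1.11) and 1.25% in muscle (0.426 to 3.61). Per read of LGR4, P10 organoids had 0.341 times as many LGR5 reads as P5 organoids (0.144 to 0.729). LGR5 parted from ASCL2 as well: there were 6.74 reads of ASCL2 for each read of LGR5 in intestine, 8.82 at P5 and 426 at P10. The last was 48.1 times the P5 value (22.3 to 115). Reads of OLFM4 per read of LGR5 were 15.9 times as many at P10 as at P5 (7.61 to 33.1). Both ratios restate the differences of single genes given above and rest on 9 reads of LGR5 at P10. Reads of AXIN2, a target, per read of the receptor LGR4 stood at 0.0482 in intestine, 0.101 at P5 and 0.311 at P10, and the P10 value was 3.07 times that of P5 (2.57 to 3.69). The 2 crypt base markers also differed in balance, with 1.20 reads of SMOC2 per read of OLFM4 in intestine, 0.221 at P5 and 0.415 at P10.

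**Figure D3:**
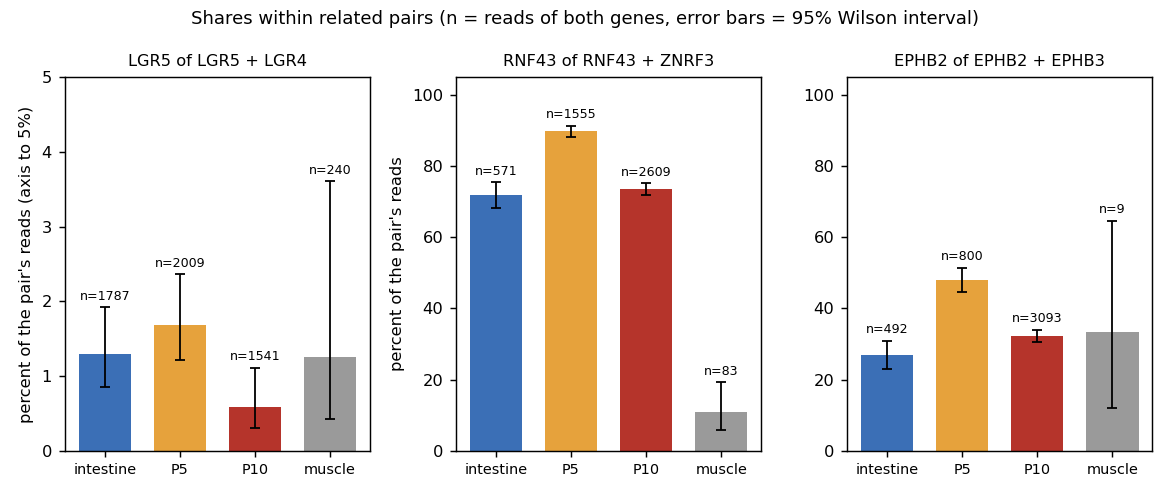
Percent of the summed reads of a related pair that fell on its first gene, in intestine, P5 organoids, P10 organoids and muscle, with 95% Wilson intervals and the summed reads as n. The first panel has an axis to 5%. RNF43 and EPHB2 take their largest organoid shares at P5, 89.9% and 48.0%, beside 73.5% and 32.3% at P10.

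The other genes of the pathway were described from lists of their own. The shares to set beside each count below are those of all rows with at least 10 reads in either organoid library, 16.1% higher and 16.6% lower at P10. Of 18 other Wnt targets and stem cell signature genes of the crypt, all with at least 10 reads in either organoid library, 13 were at least 2-fold higher in P10 organoids, 1 was at least 2-fold lower and 4 were within 2-fold, with a median log2 difference of 1.38. The count of 13 was the same under all 9 alternatives. NKD1, a feedback inhibitor that binds Dishevelled, had 1 read at P5 and 58 at P10, beside 50 in intestine (CPM ratio 44.5, 7.68 to 1787). TERT, the catalytic subunit of telomerase, had 70 and 1016 reads (CPM ratio 11.1, 8.73 to 14.4), and 46 in intestine. TNFRSF19, a receptor also called TROY that marks crypt stem cells, had 9 and 83 reads (CPM ratio 7.07, 3.55 to 16.0). The 1 lower gene was PHLDA1, named after its value was seen, with 1677 reads at P5 and 1041 at P10 (CPM ratio 0.476, 0.440 to 0.515). Among the 13 higher, SOX9, a transcription factor of crypt cells also named outside the rule, had 914 and 3814 reads (CPM ratio 3.20, 2.98 to 3.44). The 4 within 2-fold were MYC, CCND1, CD44 and SP5, of which MYC had a CPM ratio of 1.23 (0.910 to 1.67) and CCND1, the gene of cyclin D1, one of 0.584 (0.464 to 0.733).

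Of the 5 reserve stem cell markers, TERT and LRIG1 were called higher, both of which also stand in the list above. LRIG1, an inhibitor of EGF receptor signalling, had 421 and 1445 reads (CPM ratio 2.63, 2.36 to 2.94). HOPX, a homeodomain protein, had 754 and 1845 reads and lay within 2-fold (log2 difference 0.86), as did BMI1 and CLU.

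Of 20 transducers, the components between receptor and nucleus, 4 were higher at P10, 1 was lower and 15 were within 2-fold, with a median log2 difference of 0.17. The share higher was near the 16.1% of all rows, whose median was 0.06. AXIN1, the constitutive counterpart of AXIN2, had 183 reads at P5 and 830 at P10, a CPM ratio of 3.48 (2.96 to 4.11) whose interval lay above that of AXIN2. TCF7L1, a TCF factor that mostly represses, had 7 and 52 reads (CPM ratio 5.70, 2.58 to 14.9). PYGO2, a coactivator of beta-catenin, had 80 and 274 reads (CPM ratio 2.63, 2.04 to 3.41). TCF7, the fourth that was higher, sat at 2-fold (log2 difference 1.0, CPM ratio 2.28, 1.49 to 3.57). The lower gene was LEF1, a TCF family factor, with 19 reads and 1. CTNNB1, which encodes beta-catenin, had 3225 and 3264 reads (CPM ratio 0.776, 0.739 to 0.815). These 3 were named after their values were seen.

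Of 16 Frizzled receptors and coreceptors, 11 had at least 10 reads in either organoid library. Of these, FZD1 (4 reads at P5, 24 at P10) and FZD9 (5 and 23) were higher and 0 were lower. The share higher was near that of all rows. Under the alternatives, up to 2 were lower. FZD5, a Frizzled receptor of the intestinal epithelium, had 981 reads at P5 and 678 at P10, with a log2 difference of -1.0 that was just short of 2-fold (CPM ratio 0.530, 0.480 to 0.585). FZD8 had 31 and 81 reads (log2 difference 0.85) and FZD3 had 273 and 597 (0.61).

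Of 23 Wnt and R-spondin ligands, only 9 had at least 10 reads in either organoid library, with WNT2 and WNT3 higher at P10 and WNT5A, WNT9A, WNT10A and WNT11 lower, all on under 50 reads. WNT5B, a ligand of the noncanonical branch, was the 1 with at least 50 reads there, with 257 at P5 and 529 at P10 (log2 difference 0.52). The 6 and the R-spondins below, which bind LGR4 and LGR5, were named after their values were seen. RSPO3 had 413 reads in intestine and 1185 in muscle, against 1 at P5 and 4 at P10, and RSPO2 had 162, 554, 8 and 1.

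Of the secreted and membrane inhibitors, 7 of 15 found had at least 10 reads in either organoid library, with 1 higher and 1 lower, both near the shares of all rows. SFRP2, a secreted Frizzled-related protein, had 188 reads at P5 and 644 at P10 (CPM ratio 2.63, 2.23 to 3.11). KREMEN2, a receptor for the DKK inhibitors, had 102 and 30 reads (CPM ratio 0.226, 0.145 to 0.342). APCDD1, a membrane inhibitor, had 83 and 234 reads and lay within 2-fold (log2 difference 0.91).

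Of the other 6 ephrin-B and EPHB genes, 4 could be compared. EPHB4 was called higher, with 126 reads at P5 and 708 at P10 (CPM ratio 4.31, 3.56 to 5.25). The ligands EFNB1 and EFNB2 lay within 2-fold, with log2 differences of -0.45 and -0.36.

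**Figure D4:**
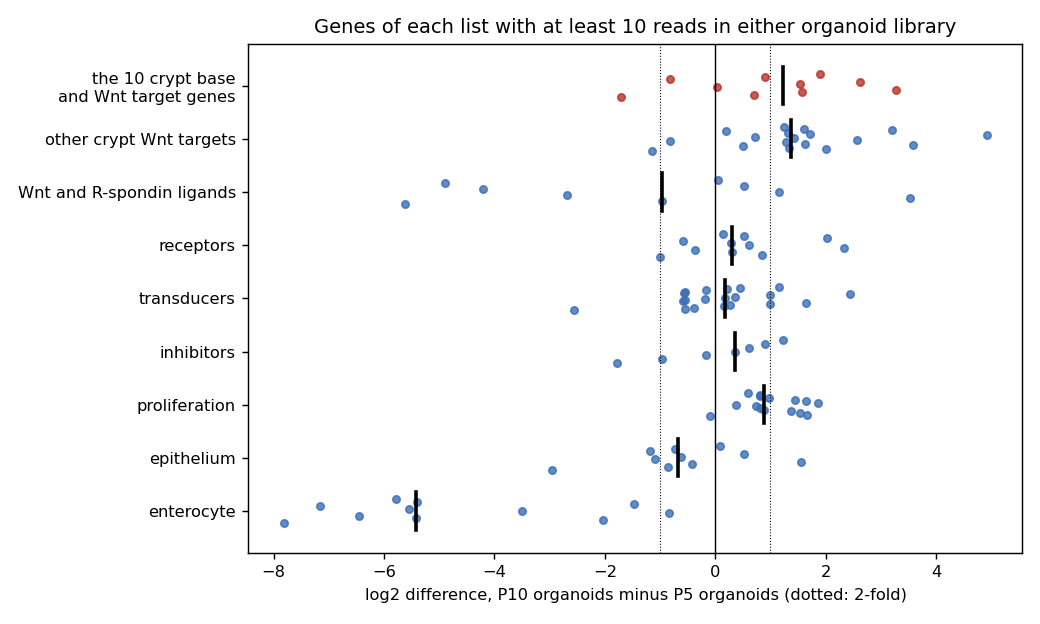
Each point is the log2 difference of P10 minus P5 organoids of 1 gene, by list, for genes reaching 10 reads in 1 of the 2. Vertical bars are medians and dotted lines 2-fold. The medians are 1.22 for the 10 crypt base and Wnt target genes, 1.38 for the other crypt Wnt targets, 0.17 for the transducers, 0.88 for proliferation genes and -5.43 for enterocyte genes. A gene with 0 reads in 1 library is drawn at its value with the pseudocount of 1, which is no bound.

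Against whole intestine, the organoid libraries were compared with the same intestine library, so both comparisons share it. At P5, 6 of the 10 genes exceeded intestine by 2-fold or more and 0 were below it by as much, beside 24.9% and 22.8% of the 17783 rows compared that did so upwards and downwards. Those 6 were OLFM4 (log2 difference 2.75), EPHB2 (2.05), RNF43 (1.99), AXIN2 (1.97), LGR5 (1.73) and ASCL2 (1.42). The call of LGR5 was lost with library totals (0.92; CPM ratio 1.93, 1.11 to 3.44), TMM (0.75), upper quartile (0.77) and totals without RN18S1 (0.93). At P10, 8 exceeded it and 0 were below, beside 28.0% and 26.1% of 17803 rows. ASCL2 (4.69) and OLFM4 (4.29) were the highest of them, with CPM ratios to intestine of 24.8 (21.1 to 29.3) and 23.1 (21.9 to 24.3). EPHB2, SMOC2, AXIN2, EPHB3, ZNRF3 and RNF43 followed, between 2.95 and 2.03.

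The level of LGR5 in P10 organoids relative to intestine turned with the scaling. Its log2 difference was 0.03 with quantile normalisation, in which 1 read has a log2 value of 0.32 in intestine and 2.09 in P10 organoids, and its CPM ratio was 0.392 (0.160 to 0.880). LGR4 was within 2-fold of intestine at both passages, with log2 differences of 0.31 at P5 and -0.50 at P10. SMOC2 (0.16), ZNRF3 (0.47) and EPHB3 (0.47) were within 2-fold of intestine at P5.

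The summed epithelial markers, at 2056 CPM in intestine, were also higher in organoids. Set against them, differences above intestine were smaller or turned. LGR4 at P10, already below intestine, went from a log2 difference of -0.50 to -2.46. The sum leaned on keratins. KRT8 went from 781 CPM in intestine to 4082 CPM at P10, and KRT19 from 533 to 2603. EPCAM went from 322 to 578 CPM. At P10, 6 of the 10 markers were called higher than intestine, 0 lower and 4 lay within 2-fold. Values on this scale therefore depend on the markers chosen and are no measure of epithelial content alone. Per read of these markers, 0 of the 10 genes exceeded intestine by 2-fold at P5 and 6 were at least 2-fold below it, beside 4.27% and 84.6% of all rows compared. The median log2 difference was then -1.22 for the 10 genes and -2.28 for all rows, so a lower value on this scale was general and is no result about these genes. At P10, where 5.48% of rows were higher and 78.3% lower, 2 of the genes were higher, ASCL2 (log2 difference 2.36) and OLFM4 (2.26), and 2 were lower, LGR5 (-3.38) and LGR4 (-2.46). OLFM4 was the only gene of the 10 above intestine at P5 on this scale, at 0.45. Per 1000 epithelial marker reads there were 11.2 reads of RNF43 in intestine, 9.55 at P5 and 11.0 at P10, log2 differences from intestine of -0.23 and -0.04. For LGR4 the same values were 48.3, 13.5 and 8.75, and for LGR5 0.629, 0.232 and 0.0514, both highest in intestine. ASCL2 had 4.24, 2.05 and 21.9, and SMOC2 had 48.9, 12.3 and 81.1, both lowest at P5.

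**Figure D5:**
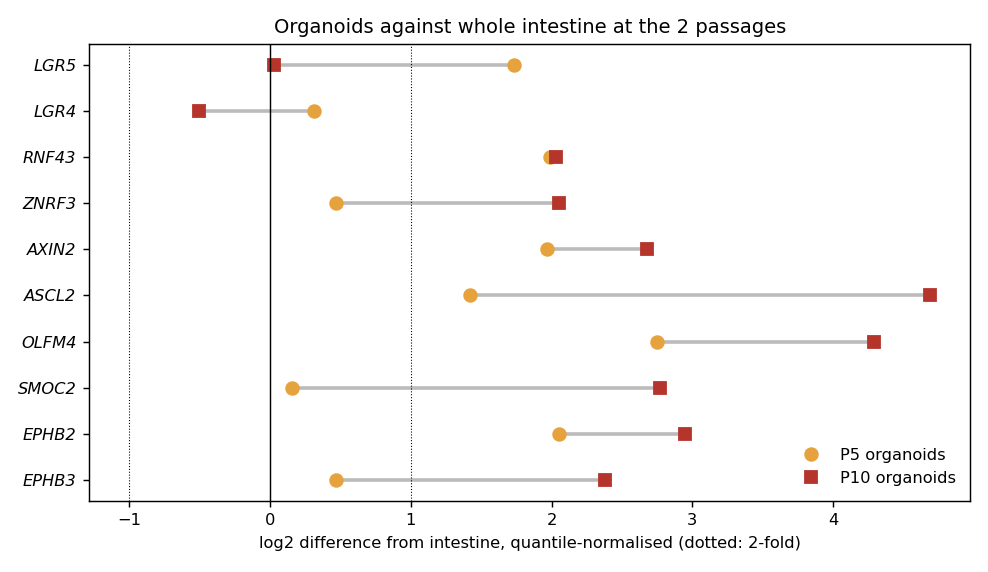
Log2 difference from whole intestine with quantile normalisation, for P5 organoids (circles) and P10 organoids (squares), joined for each gene. LGR4 lies on opposite sides of intestine, at 0.31 and -0.50, and ASCL2 has the longest line, from 1.42 to 4.69.

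Muscle was the tissue without crypts. In intestine, 8 of the 10 genes exceeded muscle by 2-fold or more (32.3% of 17559 rows were higher and 27.0% lower), in P5 organoids 9 (33.5% higher and 27.3% lower of 16840 rows), and in P10 organoids 8 of the 9 with enough reads (35.2% higher and 28.5% lower of 16771 rows). None of the 10 was at least 2-fold lower than in muscle in these comparisons. With quantile normalisation, those within 2-fold were LGR5 (log2 difference 0.58) and ZNRF3 in intestine, ZNRF3 in P5 organoids and LGR4 in P10 organoids (0.93). LGR5 in intestine passed 2-fold with library totals (2.19; CPM ratio 5.57, 1.68 to 29.0), totals without RN18S1 (1.94), TMM (1.34) and upper quartile (1.19). LGR4 in P10 organoids passed it with library totals (2.23; CPM ratio 4.71, 4.10 to 5.42) and totals without RN18S1 (1.85). ZNRF3 in P5 organoids, at -0.33, had a CPM ratio to muscle of 2.02 (1.52 to 2.69). OLFM4 and ASCL2 had 0 reads in muscle, so only the exact lower limits of their CPM ratios to muscle are given. For OLFM4 these were 293 in intestine and 6768 in P10 organoids, and for ASCL2 30.2 and 756. With muscle set to a floor of 3 reads, the ratios were 361 and 8322 for OLFM4, and 37.5 and 931 for ASCL2. These floor values are no bounds. Among the genes with few muscle reads, the CPM ratios of intestine to muscle were 33.2 for RNF43 (17.3 to 73.1), 32.0 for EPHB2 (10.7 to 157), 43.6 for EPHB3 (19.8 to 120) and 61.8 for AXIN2 (10.8 to 2468). AXIN2 and EPHB2 rest there on 1 and 3 muscle reads.

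LGR4, SMOC2 and ZNRF3 had more muscle reads, relative to intestine, than any epithelial marker. The epithelial markers were counted in muscle at 0.818% of their intestine reads together, with single genes from 0% to 6.67%. RNF43 (2.19%), EPHB2 (2.27%), EPHB3 (1.67%) and AXIN2 (1.18%) fell in that range, whereas SMOC2 (8.94%), LGR4 (13.4%) and ZNRF3 (46.2%) lay above it. LGR5 lay at 13.0%, on 3 reads. ZNRF3 was lower in intestine than in muscle by quantile normalisation (log2 difference -0.80) and higher by library totals (CPM ratio 1.57, 1.19 to 2.10), so its order is not settled.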

How the data were processed

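The authors aligned QuantSeq reads of the 4 libraries with Bowtie2, counted them per gene with Bedtools, reads with several alignments included, and deposited the raw counts. Versions, genome build and annotation are not given in the sources used here. Reads of near-identical genes may therefore be shared. Of 29792 rows, 22200 had a read and were quantile-normalised over the 4 libraries (limma 3.58.1, ties averaged, R 4.3.3), as the study names quantile normalisation, with a pseudocount of 1. edgeR 4.0.16 gave TMM and upper-quartile factors. No test was made, since each condition has 1 library. Intervals are exact conditional (CPM ratios), exact conditional or, for large counts, log-odds (pair ratios) and Wilson (levels and shares), by scipy 1.17.1 and statsmodels 0.14.6 in Python 3.11.15. Only those of the CPM ratios were checked on simulated libraries. These held Poisson counts, which the intervals assume, so the check says nothing about PCR copies or variation between libraries. The floor was 3 reads. The genes and lists were chosen with earlier results of these data known. All 10 genes are named, and, of each other pathway list, up to 3 genes with the largest difference between the passages and at least 50 reads. Other list genes, among them FZD1, FZD9, MYC, CCND1, CD44, SP5, BMI1 and CLU, were named outside this rule with their values known. The 9 alternatives were library totals, TMM, upper quartile, totals without RN18S1, reads per epithelial marker read, quantile normalisation without muscle, a pseudocount of 0.1 or 5, and only rows with at least 10 reads in any library. Their use on the other lists was added after seeing the data. The 10 symbols matched the RefSeq table.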

Additional observations from a re-analysis of the deposited data

Results flagged for a closer look

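With quantile normalisation, LGR4 was above intestine at P5 and below it at P10, with a gap of -0.81 on the log2 scale between the passages. By library totals the CPM ratios to intestine were 1.46 (1.37 to 1.56) at P5 and 0.871 (0.813 to 0.933) at P10. LGR5 was also above and then below by library totals, with CPM ratios of 1.93 (1.11 to 3.44) and 0.392 (0.160 to 0.880). Per epithelial marker read, both genes were below intestine at P5 and at P10. On that scale, 84.6% of all rows compared were at least 2-fold below intestine at P5 and 78.3% at P10, so a lower value was general. With 1 library at each passage, these differences were not tested.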

How the results depend on the processing

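Of the 60 differences of the 10 genes over 6 comparisons, 44 had 1 direction under every alternative run, 9 for comparisons among intestine and organoids and 7 for those with muscle, where scaling per epithelial marker read and normalisation without muscle do not apply. Between the passages, the count at least 2-fold higher was 5 or 6 and the count lower was 1 under all 9, and RNF43 alone changed sign, with upper-quartile normalisation. Against muscle, the counts higher differed by at most 1 from those given. Scaling per epithelial marker read changed the comparisons with intestine. At P5, 0 genes were then at least 2-fold higher and 6 lower, ZNRF3 (-2.02), SMOC2 (-1.99), LGR4 (-1.84), EPHB3 (-1.79), LGR5 (-1.40) and ASCL2 (-1.04), while AXIN2 (-0.76), EPHB2 (-0.46) and RNF43 (-0.23) also turned below intestine. At P10, 2 were higher and 2 lower, with RNF43 at -0.04 and ZNRF3 at -0.15. With library totals, TMM, upper-quartile normalisation or totals without RN18S1, 1 gene, LGR5, was at least 2-fold lower than intestine at P10. Over all rows compared, this epithelial scaling moved the median log2 difference from intestine from 0.11 to -2.28 at P5 and to -2.13 at P10, which follows from its divisor. The split of rows past 2-fold between P5 organoids and intestine was 52.3% higher in the values given, and 40.5% with TMM. At P10 it was 51.7%, and 40.7% with upper-quartile normalisation. LGR5 is limited by its few reads, 9 to 34 outside muscle, and why they were few was not tested. No paired analysis was possible because each condition has 1 library.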
